A study of Mus musculus with 42 samples.

Results

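The genes described here are 32 genes of fatty acid oxidation and of the program of the nuclear receptor PPAR-alpha, taken as the rows with these gene names in the deposited tables of whole mouse kidney, which list 54532 genes each. They were grouped by role into 3 regulators, 4 genes of the carnitine shuttle, 4 acyl-CoA dehydrogenases, 5 genes of the later steps of mitochondrial oxidation, 3 auxiliary enzymes for unsaturated fatty acids, 3 genes of electron transfer, 7 peroxisomal genes and 3 further targets of PPAR-alpha. The study asked how loss of the transcription factor TFEB changes the kidneys of mice that lack Tsc2, the gene of a brake on the growth kinase complex mTORC1, and how the mTORC1 inhibitor rapamycin compares with that loss. Poly-A RNA of 42 whole kidneys was sequenced in 14 groups of 3 libraries. The CaggCreERT2 cohort, a whole-body model in which tamoxifen given to lactating mothers activates Cre, held control, Tsc2 KO, Tfeb KO and Tsc2+Tfeb DKO mice at postnatal day 30, and its controls carried Cre, had no floxed Tsc2 and were exposed to tamoxifen as well. The KspCre cohort held the same 4 genotypes at postnatal day 50, with Cre driven by the cadherin 16 promoter, which is active in part of the tubule epithelium only, and with Cre-negative controls. In a separate KspCre cohort, the drug cohort, control, Tsc2 KO and DKO mice received vehicle or rapamycin at 1 mg/kg, 3 times a week from day 25, in 11 injections, with the kidneys taken at postnatal day 50. All mice were on a C57BL/6 background, and a whole-kidney library mixes recombined with unrecombined cells. Each library is a separate animal according to the series design, with 3 animals per group. The p-values rest on the spread between animals within groups, estimated over all groups of a cohort and shared in part between genes.

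Fatty acids are burned in mitochondria by a cycle of dehydrogenation, hydration, a second dehydrogenation and thiolysis, after the carnitine shuttle has carried long chains across the inner membrane. Peroxisomes run a parallel cycle on very long and branched chains and on dicarboxylic acids, whose first oxidation gives hydrogen peroxide that catalase removes. PPAR-alpha switches on most of these genes when fatty acids are plentiful, with the coactivator PGC-1alpha and the receptor ERR-alpha as partners, and the proximal tubule of the kidney depends on this pathway for its energy.

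Promoters are shown for 4 members that fell in Tsc2 KO mice in all 3 cohorts, to give the sequence next to the start sites of a mitochondrial gene (Acadm) and of peroxisomal genes with large changes (Cat, Ehhadh and Acaa1b). Each is the 250 bases before the RefSeq start, in build GRCm38.p6, written from 5′ to 3′ on the gene's strand, and capitals mark the letters AGGTCA on either strand, the element that nuclear receptors of this family bind. Acadm lies on the minus strand at chr3:153944644-153944893, Cat on the minus strand at chr2:103485154-103485403, Ehhadh on the minus strand at chr16:21787835-21788084 and Acaa1b on the minus strand at chr9:119157094-119157343.
Acadm: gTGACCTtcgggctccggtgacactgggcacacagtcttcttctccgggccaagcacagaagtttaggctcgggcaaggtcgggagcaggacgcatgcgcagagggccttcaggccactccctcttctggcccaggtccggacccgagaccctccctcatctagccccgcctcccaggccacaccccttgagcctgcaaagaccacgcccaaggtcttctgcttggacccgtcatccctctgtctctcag
Cat: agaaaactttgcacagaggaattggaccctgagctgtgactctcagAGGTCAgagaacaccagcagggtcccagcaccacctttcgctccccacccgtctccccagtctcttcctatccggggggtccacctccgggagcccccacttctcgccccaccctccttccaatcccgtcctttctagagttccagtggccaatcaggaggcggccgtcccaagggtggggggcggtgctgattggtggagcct
Ehhadh: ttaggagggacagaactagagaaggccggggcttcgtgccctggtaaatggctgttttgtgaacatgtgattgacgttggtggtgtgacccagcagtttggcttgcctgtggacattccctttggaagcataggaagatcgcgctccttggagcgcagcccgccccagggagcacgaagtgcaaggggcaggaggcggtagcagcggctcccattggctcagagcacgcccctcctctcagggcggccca
Acaa1b: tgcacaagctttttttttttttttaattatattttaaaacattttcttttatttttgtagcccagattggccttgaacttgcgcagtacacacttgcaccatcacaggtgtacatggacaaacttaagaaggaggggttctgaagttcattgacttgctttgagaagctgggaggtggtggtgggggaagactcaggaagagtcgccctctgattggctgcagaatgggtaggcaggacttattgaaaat
The AGGTCA element begins 249 bases before the start of Acadm and 204 bases before that of Cat, and these letters are not in the stretches of Ehhadh and Acaa1b. GC content is 64% for Acadm, 62% for Cat, 60.4% for Ehhadh and 41.6% for Acaa1b. RefSeq windows of 300 bases, which run to 50 bases past the start, were at hand for 26 members (27 windows). The element was found in 6 of these windows (22.2%: Acadm, Acadvl, Cat, Cpt1a, Echs1 and Scp2), against 16.3% of all 32851 mouse windows. The PPAR element, a direct repeat of 2 copies of AGGTCA with 1 base between them, was in none of the member windows and in 0.0396% of all. The ERR element TCAAGGTCA was in none and in 0.423%. The E-box CACGTG, the core of the letters that TFEB binds, was in none and in 7.15%. All motifs were searched on both strands, and the AGGTCA element is contained in both the direct repeat and the ERR element, so these matches overlap. A match is a description of the letters and not a binding site. The members are spread over the genome, with Hadha and Hadhb placed head to head 85 bases apart, Cyp4a14 and Cyp4a10 22121 bases apart, and Acaa1b and Acaa1a 182582 bases apart. The names mark the last 2 pairs as members of 1 gene family each, and how far their reads can be told apart was not tested.

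Reads counted on genes ranged from 14926050 to 22807605 per library. Tsc2 followed the labels, with whole-kidney levels at 4.06 to 4.55 FPKM in CaggCreERT2 Tsc2 KO libraries against 9.81 to 10.6 FPKM in controls, and Tsc2 KO against control gave a log2 fold change between -1.22 and -1.20 in the 3 cohorts. Tfeb alone is less firmly checked: its log2 fold change in Tfeb KO mice was -0.80 (edgeR adjusted p = 0.394) in the CaggCreERT2 cohort and -0.33 (0.627) in the KspCre cohort. A few libraries stood apart by markers of other tissue. Summed FPKM of 6 adrenal cortex markers reached 1361 in Tsc2 KO vehicle replicate 1 and 4299 in DKO vehicle replicate 2, against a median of 1.56 over the drug cohort, and DKO vehicle replicate 1 was at 306.7 FPKM and Tsc2 KO vehicle replicate 2 at 51.56 FPKM. They were 272.7 and 34.01 FPKM in CaggCreERT2 Tfeb KO replicates 1 and 2 and at most 2.082 FPKM in the rest of that cohort. Further, 12 macrophage markers summed to 941.4 FPKM in KspCre DKO replicate 1 against a cohort median of 107.1. Summed FPKM of 6 adipose markers ran from 0 to 676 in the CaggCreERT2, from 0.441 to 749 in the KspCre and from 0.0893 to 676 in the drug cohort, with wide spread within groups. The CaggCreERT2 controls were all male and the Tfeb KO mice all female, while the Tsc2 KO and DKO groups held both sexes. From the control and Tfeb KO libraries by themselves, sex and the loss of Tfeb cannot be told apart. A sex term for that comparison rests on the Tsc2 KO and DKO groups. For 4 CaggCreERT2 libraries the count and FPKM tables carry different names, with a different genotype for 2 of them, and the FPKM table's names were taken. Of those 2, the library named DKO replicate 1 in the FPKM table and Tfeb KO in the count table had Tsc2 at 5.26 FPKM, and the one named Tfeb KO replicate 3 in the FPKM table and DKO in the count table had it at 10.2 FPKM. By the FPKM table's names, Tsc2 was at 4.82 and 5.64 FPKM in DKO replicates 2 and 3 and at 9.34 and 9.05 FPKM in Tfeb KO replicates 1 and 2.

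All 32 genes passed the filter on low counts and reached a mean of 5 FPKM in every comparison. FPKM is the deposited level, fragments scaled by gene length and by library depth, and a level is compared between genes only on this scale. Overlap between groups is judged on it, library by library. How often groups of 3 libraries do not overlap over all genes was not determined, so a lack of overlap describes the libraries only. A gene is called increased or decreased where edgeR's quasi-likelihood test, adjusted by Benjamini-Hochberg over all genes tested, gave 0.05 or lower and a group compared had a mean of at least 5 FPKM. Fold changes are edgeR's, on the log2 scale with their standard error (SE). The background shares of called genes are over all genes tested, including those below 5 FPKM, which could not be called. All 32 members could be called, so the shares are not like for like with the members' counts.

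After loss of Tsc2, called decreases among the 32 genes were found in all 3 cohorts. In the CaggCreERT2 cohort 17 members decreased, none increased and 15 were not called. The members' median log2 fold change was -0.48 over the members against 0.00 over the 16348 genes tested, of which 7.65% were called decreased and 11.4% increased. In the KspCre cohort 10 members decreased, none increased and 22 were not called. The median was -0.41 against -0.01 over 16631 genes, of which 4.06% were called decreased and 4.38% increased. In the drug cohort 26 members decreased in Tsc2 KO vehicle mice and none increased. The median was -0.86 against 0.01 over 17027 genes, of which 11.7% were called decreased and 11.3% increased. The cohorts have separate animals and controls, and 31 members had a log2 fold change below 0 in each of them, called or not, the exception being Ppargc1a. Whether the change of a member differs between cohorts was not tested. Decreased in all 3 cohorts were 9 members: Acadm, Echs1 and Decr1 of the mitochondria, Ehhadh, Cat, Acaa1b, Abcd3 and Scp2 of the peroxisome, and the fatty acid hydroxylase Cyp4a10. Of these, 3 (Acadm, Ehhadh and Acaa1b) kept the call in every cohort under every setting tried. The KspCre call was lost in 2 of 19 settings for Decr1 and Cyp4a10, 4 for Echs1 and Cat, 5 for Abcd3 and 11 for Scp2. In the CaggCreERT2 cohort the count ranged from 10 without Tsc2 KO replicate 1 to 21 without Tsc2 KO replicate 3, where 1 member was also called increased. With Xist as a covariate it was 14, with a median of -0.66. In the KspCre cohort it was 4 without Tsc2 KO replicate 1 and 6 without control replicate 1, and the median moved to -0.25 without control replicate 1. With the adipose markers as a covariate, a setting chosen after seeing the data, it was 5, with a median of -0.22, and the CaggCreERT2 and drug cohorts gave 14 and 27.

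**Figure D1:**
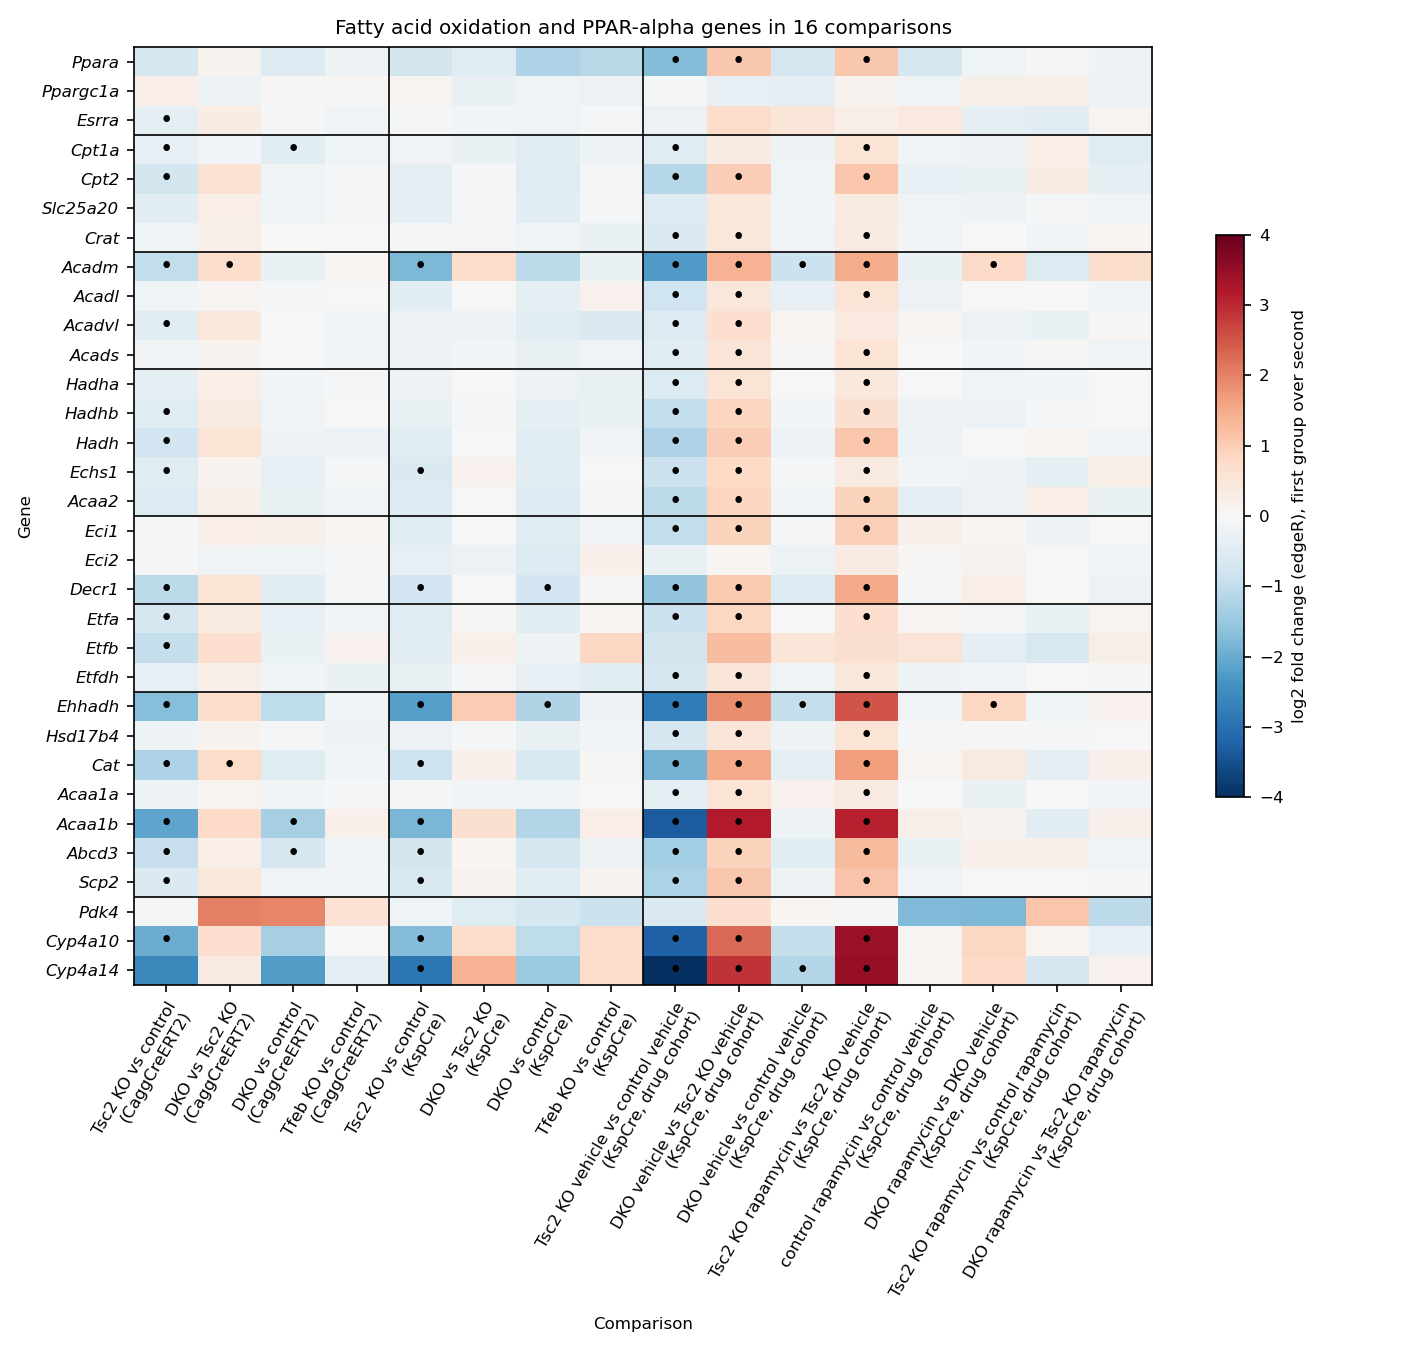
Log2 fold change (edgeR, colour) of the 32 genes (rows, grouped by role) in the 16 pairwise comparisons (columns), the first named group over the second, with dots on called genes. Called decreases stand in the columns of Tsc2 KO against control (17, 10 and 26 members), and called increases in the drug-cohort columns of DKO vehicle and of Tsc2 KO rapamycin against Tsc2 KO vehicle (25 members each).

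Most peroxisomal genes decreased, with 5 of 7 called in the CaggCreERT2 cohort, 5 of 7 in the KspCre cohort and 7 of 7 in the drug cohort. Ehhadh, the bifunctional enzyme of the peroxisomal cycle and a textbook PPAR-alpha target, was at 138, 136 and 106 FPKM in CaggCreERT2 control kidneys and 28.3, 27 and 55.9 FPKM in Tsc2 KO kidneys. KspCre levels were 268, 194 and 233 FPKM in controls and at 38.9, 53.3 and 58 FPKM in Tsc2 KO mice. Drug-cohort levels were 236, 205 and 222 FPKM against 32.8, 24.7 and 37.7 FPKM with vehicle. The groups did not overlap in any cohort. The log2 fold change was -1.71 (SE 0.34, adjusted p = 0.00298), -2.21 (SE 0.18, adjusted p = 8.22e-05) and -2.80 (SE 0.21, adjusted p = 8.55e-08), the last of these a 6.95-fold lower level.

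Acaa1b, a peroxisomal thiolase that ends each turn of the cycle, fell from 207, 204 and 177 FPKM in CaggCreERT2 controls to 25.8, 25.2 and 80.6 FPKM in Tsc2 KO mice. It was at 256, 174 and 125 FPKM against 46.9, 55.9 and 54.9 FPKM in the KspCre cohort and at 202, 214 and 167 FPKM against 12.1, 16.2 and 29 FPKM in the drug cohort. Every Tsc2 KO library was below every control, and the spread was widest in the CaggCreERT2 Tsc2 KO group, where replicate 3 was above the other two. The log2 fold changes were -2.10 (SE 0.40), -1.82 (SE 0.30) and -3.34 (SE 0.29), the last a 10.1-fold lower level. Its neighbour Acaa1a was at 48.4, 38.7 and 41.3 FPKM in control vehicle and 31.1, 32.2 and 36.1 FPKM in Tsc2 KO vehicle mice (log2 fold change -0.37, SE 0.13, adjusted p = 0.0412). It was not called in the other cohorts (-0.20 with adjusted p = 0.355, and -0.07 with 0.801).

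Cat, the catalase that breaks down hydrogen peroxide and one of the most abundant of these mRNAs, was at 340, 345 and 302 FPKM in CaggCreERT2 controls and at 111, 133 and 163 FPKM in Tsc2 KO mice. It was at 448, 385 and 357 FPKM against 223, 188 and 258 FPKM in the KspCre cohort and at 413, 426 and 445 FPKM against 101, 102 and 141 FPKM in the drug cohort. The groups were apart in each cohort, by log2 fold changes of -1.22 (SE 0.15), -0.83 (SE 0.22) and -1.90 (SE 0.16), or 2.33-fold, 1.78-fold and 3.72-fold lower levels. The KspCre call of Cat was lost without control replicate 1 or 2 or Tsc2 KO replicate 1 or 2. Abcd3, a transporter that brings fatty acids into the peroxisome, was at 57.3, 56.4 and 46.9 FPKM against 24.4, 23.8 and 32.5 FPKM in the CaggCreERT2 cohort. Its levels were 62.5, 52.9 and 45.8 FPKM against 28.9, 32.2 and 35.3 FPKM in the KspCre cohort and 60.9, 74.7 and 59.6 FPKM against 21.7, 26.5 and 27.4 FPKM in the drug cohort. Scp2, the gene of a sterol carrier protein and thiolase for branched chains, was at 200, 196 and 179 FPKM against 116, 117 and 139 FPKM in CaggCreERT2 mice. It was at 229, 196 and 182 FPKM against 129, 124 and 149 FPKM in KspCre mice and at 221, 226 and 216 FPKM against 85.3, 78.8 and 108 FPKM in the drug cohort. Neither gene had an overlap between control and Tsc2 KO libraries in any cohort. Their log2 fold changes were -0.93, -0.75 and -1.37 for Abcd3 and -0.57, -0.60 and -1.28 for Scp2. Hsd17b4, the other bifunctional enzyme of the peroxisome, was called in the drug cohort, where it was at 85.4, 93.4 and 88.1 FPKM in control vehicle and at 56.8, 54 and 55.8 FPKM in Tsc2 KO vehicle mice (log2 fold change -0.68, SE 0.11, adjusted p = 1.46e-04). Its log2 fold changes in the CaggCreERT2 and KspCre cohorts were -0.21 (adjusted p = 0.211) and -0.24 (0.447).

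The fatty acid omega-hydroxylases Cyp4a10 and Cyp4a14, both strongly induced by PPAR-alpha ligands, spanned a wide range. Cyp4a10 was at 188, 166 and 132 FPKM in CaggCreERT2 controls and at 11.4, 8.6 and 96.6 FPKM in Tsc2 KO mice, so that replicate 3 kept a level far above the other two. KspCre levels were 202, 187 and 199 FPKM in controls and at 45.1, 77.7 and 55.2 FPKM in Tsc2 KO mice. Drug-cohort levels were 223, 227 and 251 FPKM with vehicle in controls and at 17.4, 16.7 and 40.6 FPKM in Tsc2 KO mice. The log2 fold changes were -2.00 (SE 0.70, adjusted p = 0.0487), -1.73 (SE 0.37, adjusted p = 0.0106) and -3.23 (SE 0.38, adjusted p = 6.97e-06), and the CaggCreERT2 call was lost in 14 of 22 other settings. Cyp4a14 was at 174, 163 and 109 FPKM against 1.98, 3.64 and 66.9 FPKM in the CaggCreERT2 cohort, where it missed the threshold (log2 fold change -2.57, SE 0.93, adjusted p = 0.0564). KspCre levels fell from 187, 153 and 198 FPKM to 13, 30.6 and 29.4 FPKM, and in the drug cohort from 211, 249 and 253 FPKM to 15.3, 8.48 and 19.2 FPKM. Those changes were -2.88 (SE 0.47, adjusted p = 0.00224) and -4.05 (SE 0.37, adjusted p = 5.41e-07), the latter a 16.6-fold lower level and the largest change among the 32 genes in that comparison.

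Among the acyl-CoA dehydrogenases, which open each turn of the mitochondrial cycle, 2 of 4, 1 of 4 and 4 of 4 decreased in the CaggCreERT2, KspCre and drug cohorts. Acadm, the medium-chain enzyme, was at 159, 154 and 139 FPKM in CaggCreERT2 controls and at 63.4, 64.4 and 90.1 FPKM in Tsc2 KO mice. It was at 364, 248 and 309 FPKM against 68.3, 94.4 and 104 FPKM in the KspCre cohort and at 337, 251 and 236 FPKM against 50.5, 48.6 and 71.6 FPKM in the drug cohort. No Tsc2 KO library reached a control library, and the log2 fold changes of -0.99 (SE 0.20, adjusted p = 0.00296), -1.79 (SE 0.26, adjusted p = 0.00132) and -2.27 (SE 0.17, adjusted p = 8.55e-08) correspond to 1.99-fold, 3.46-fold and 4.83-fold lower levels. The enzymes for other chain lengths changed less. Among vehicle-treated mice Acadl, for long chains, was at 189, 206 and 150 FPKM in control vehicle and at 99.6, 94.3 and 122 FPKM in Tsc2 KO vehicle mice (log2 fold change -0.79). Acadvl, for very long chains, was at 71.8, 46.5 and 52 FPKM against 29.3, 37.8 and 48.1 FPKM (-0.56). Acads, for short chains, was at 85.3, 68.7 and 79.5 FPKM against 56.1, 53.7 and 59.9 FPKM (-0.46). Acadvl is the one called decrease of this comparison whose groups overlapped, and it was also called in the CaggCreERT2 cohort, at 62.4, 64.1 and 51.8 FPKM against 35.3, 40.6 and 49.2 FPKM (-0.45, SE 0.14, adjusted p = 0.0344).

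The later steps of the mitochondrial cycle are run by Echs1, Hadh, the trifunctional protein of Hadha and Hadhb, and the thiolase Acaa2, and 3 of 5, 1 of 5 and 5 of 5 of these genes decreased. Echs1, the short-chain hydratase, was at 38.6, 35.9 and 34 FPKM against 22.6, 24.8 and 27.7 FPKM in the CaggCreERT2 cohort, at 37.8, 27.6 and 27.7 FPKM against 18.3, 22.8 and 21.4 FPKM in the KspCre cohort and at 37.5, 30.3 and 32 FPKM against 18.4, 17 and 19.8 FPKM in the drug cohort (log2 fold change -0.47, -0.58 and -0.86). Hadh, the dehydrogenase for short hydroxylated chains, was at 124, 116 and 113 FPKM against 54.7, 61.7 and 83.6 FPKM in the CaggCreERT2 cohort (-0.76) and at 97.4, 114 and 101 FPKM against 40.9, 37.7 and 54.9 FPKM in the drug cohort (-1.23). In the KspCre cohort, at 109, 89.8 and 88.1 FPKM against 63.8, 68 and 78.6 FPKM, Hadh had a log2 fold change of -0.45 with an adjusted p of 0.154. Hadhb was called in the CaggCreERT2 cohort, at 41.4, 41.7 and 37.3 FPKM against 22.6, 27.6 and 31.4 FPKM (-0.50), and in the drug cohort, at 53.4, 55.7 and 42.1 FPKM against 19.6, 27.1 and 30.3 FPKM (-0.97). Hadha, which lies head to head with Hadhb, and Acaa2 were called in the drug cohort. Hadha was at 47.1, 42 and 36.7 FPKM against 24, 29.5 and 33.3 FPKM (-0.54) and Acaa2 at 231, 290 and 209 FPKM against 109, 105 and 139 FPKM (-1.05). Acaa2 was also lower without overlap, though not called, in the CaggCreERT2 cohort, at 287, 274 and 286 FPKM against 132, 207 and 215 FPKM (-0.55, adjusted p = 0.0785), and in the KspCre cohort, at 243, 216 and 194 FPKM against 143, 170 and 147 FPKM (-0.51, adjusted p = 0.101). The log2 fold changes of Hadha there were -0.36 (adjusted p = 0.08) and -0.20 (0.511).

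Of the auxiliary enzymes, which move or reduce double bonds so that unsaturated fatty acids can enter the cycle, Decr1 fell in every cohort and Eci1 in the drug cohort. Decr1, the mitochondrial dienoyl-CoA reductase, was at 47.4, 44.3 and 47.1 FPKM against 16.7, 20.3 and 26.9 FPKM in the CaggCreERT2 cohort, at 52.3, 43.7 and 40.4 FPKM against 22.8, 30.5 and 26.3 FPKM in the KspCre cohort. Drug-cohort levels were 46.1, 49.4 and 43 FPKM against 12, 14.6 and 19.5 FPKM. The log2 fold changes were -1.06 (SE 0.17, adjusted p = 7.03e-04), -0.78 (SE 0.17, adjusted p = 0.0116) and -1.58 (SE 0.17, adjusted p = 2.45e-06), and the groups stood apart each time. Eci1 was at 120, 109 and 104 FPKM in control vehicle and at 61.1, 43.2 and 65.5 FPKM in Tsc2 KO vehicle mice (log2 fold change -0.97, SE 0.13, adjusted p = 1.87e-05). In the CaggCreERT2 cohort Eci1 was at 101, 104 and 98.4 FPKM against 73.4, 81.6 and 128 FPKM, so replicate 3 of the Tsc2 KO mice exceeded every control. Electrons of the dehydrogenases pass through the flavoprotein of Etfa and Etfb to the oxidoreductase Etfdh. Etfa was at 222, 216 and 208 FPKM against 112, 129 and 147 FPKM in the CaggCreERT2 cohort (log2 fold change -0.68, SE 0.11, adjusted p = 9.55e-04) and at 176, 146 and 158 FPKM against 73.6, 86.1 and 103 FPKM in the drug cohort (-0.87, SE 0.12, adjusted p = 4.07e-05). Etfdh was called in the drug cohort, at 25.4, 23.4 and 24.9 FPKM against 14.1, 15 and 17.6 FPKM (-0.66). Etfb was called in the CaggCreERT2 cohort, at 46.4, 40.9 and 54.1 FPKM against 18, 23.9 and 28.4 FPKM (-0.95). None of the 3 was called in the KspCre cohort, where their log2 fold changes were -0.47 for Etfa, -0.41 for Etfb and -0.30 for Etfdh.

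Of the carnitine shuttle 2 of 4, 0 of 4 and 3 of 4 genes decreased in the 3 cohorts, and of the regulators 1 of 3, 0 of 3 and 1 of 3. Cpt1a and Cpt2 attach and remove the carnitine at the outer and inner mitochondrial membranes. Cpt1a, the rate-limiting step of the pathway, was at 101, 106 and 102 FPKM against 75.7, 77 and 83.6 FPKM in the CaggCreERT2 cohort (log2 fold change -0.33, SE 0.09, adjusted p = 0.0204) and at 140, 123 and 125 FPKM against 84.8, 90.6 and 102 FPKM in the drug cohort (-0.49, SE 0.15, adjusted p = 0.0194). Cpt2 was at 70.7, 65.1 and 64.7 FPKM against 29.8, 33.6 and 51.7 FPKM (-0.74) and at 83.7, 77.5 and 70.9 FPKM against 29.6, 32.8 and 43 FPKM (-1.14) in the same cohorts. Both genes were lower in every Tsc2 KO library of these cohorts than in every control. Crat, which makes acetylcarnitine, was called in the drug cohort, at 44.3, 40.2 and 34.4 FPKM against 23.8, 25.9 and 29.9 FPKM (-0.58). It was at 33.3, 31.8 and 31.8 FPKM against 27, 26 and 28.7 FPKM in the CaggCreERT2 cohort, without overlap (-0.18, adjusted p = 0.247), and its log2 fold change in the KspCre cohort was -0.09 (adjusted p = 0.808). Ppara, the gene of PPAR-alpha itself, was at 16.5, 25.9 and 20.1 FPKM in control vehicle and at 6.33, 5.32 and 7.18 FPKM in Tsc2 KO vehicle mice, a 3.32-fold lower level (log2 fold change -1.73, SE 0.26, adjusted p = 6.78e-05). In the other cohorts Ppara was not called: it was at 7.69, 11.9 and 6.36 FPKM against 6.13, 5.26 and 4.27 FPKM in CaggCreERT2 mice (-0.66, adjusted p = 0.101) and at 22.4, 7.29 and 6.08 FPKM against 4.67, 7.56 and 8.95 FPKM in KspCre mice (-0.75, adjusted p = 0.464), where control replicate 1 stood above the other two. Esrra, the gene of ERR-alpha, was called in the CaggCreERT2 cohort, at 94.8, 87.7 and 87.6 FPKM against 57.8, 67.7 and 78.2 FPKM (-0.35, SE 0.11, adjusted p = 0.0304).

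**Figure D2:**
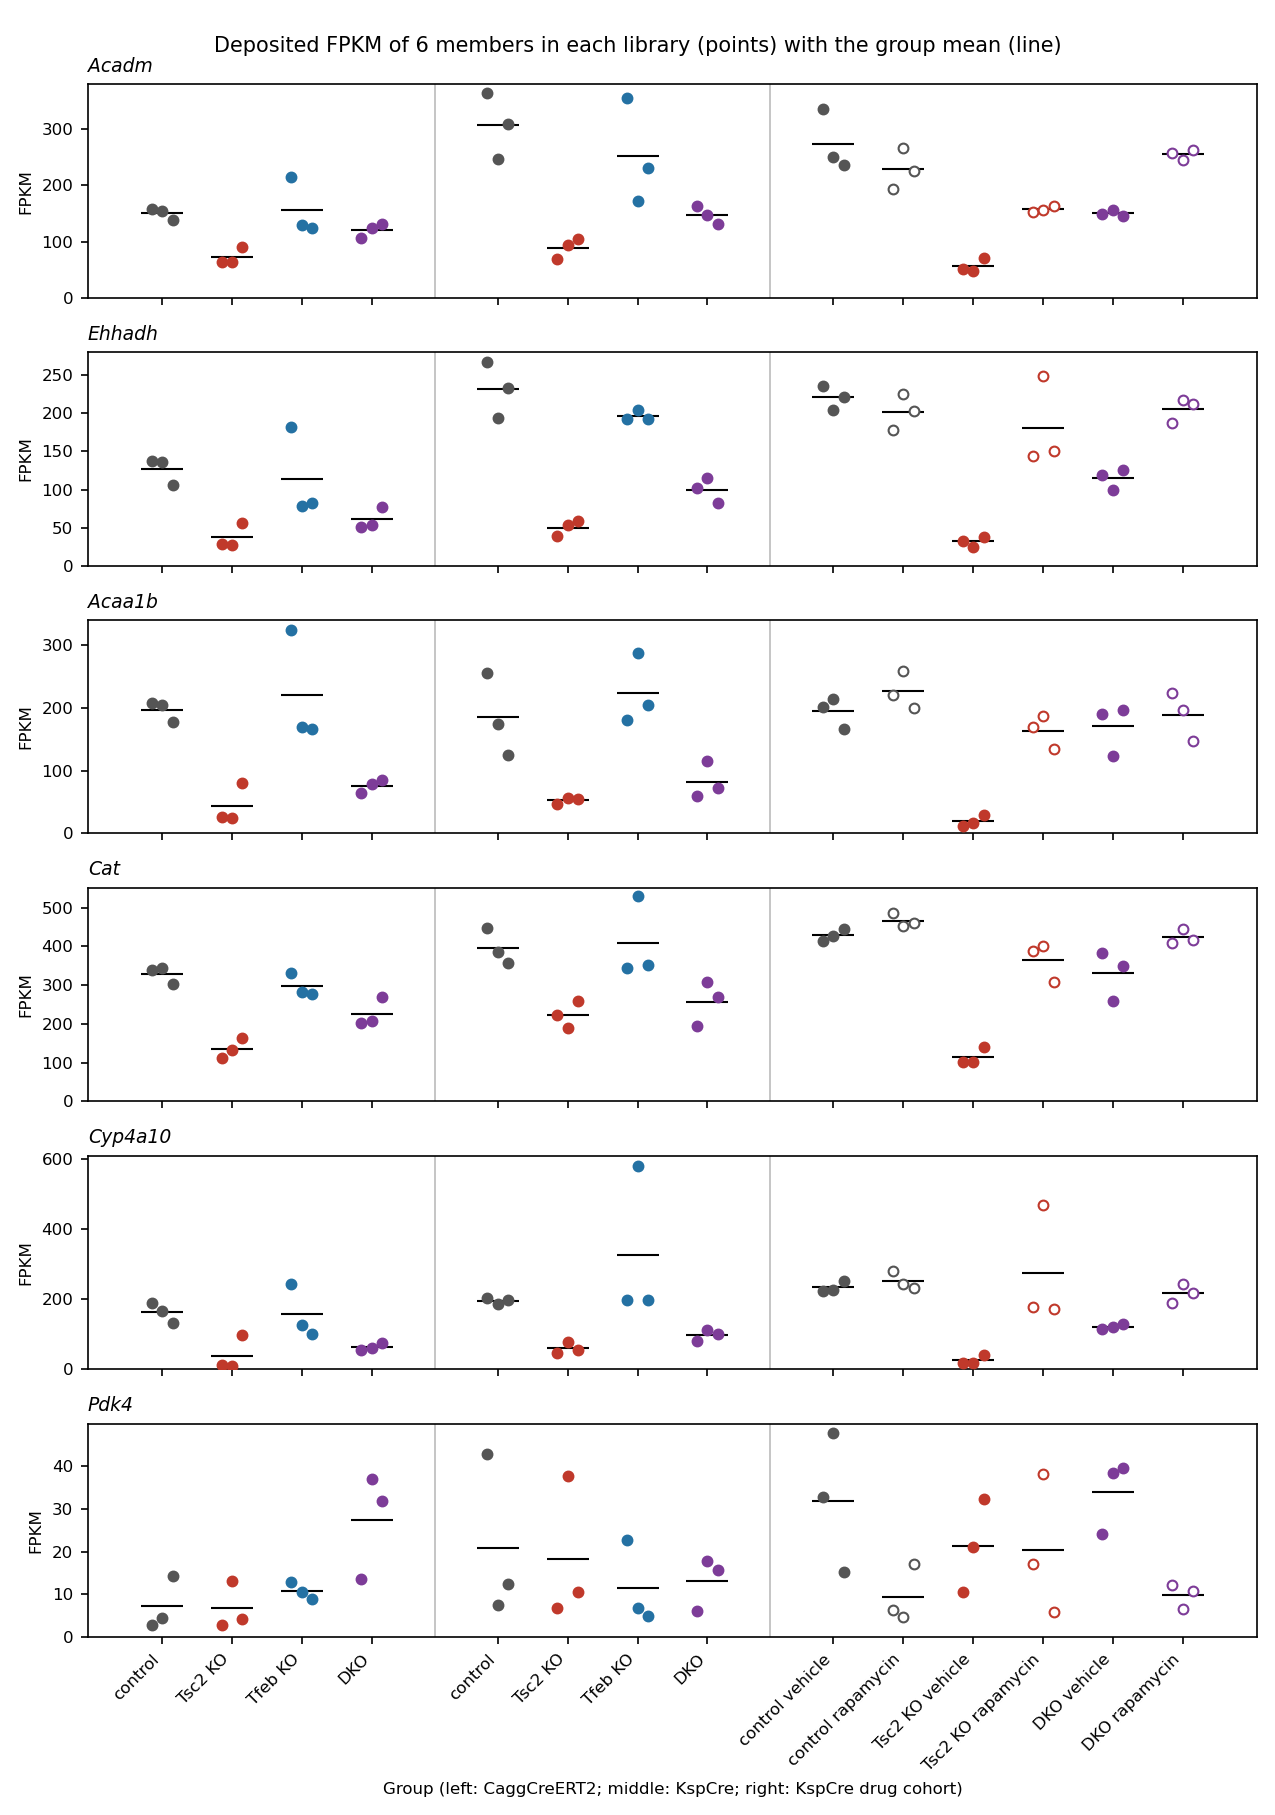
Deposited FPKM (y axis, linear from 0) of Acadm, Ehhadh, Acaa1b, Cat, Cyp4a10 and Pdk4 in each library (points) and the group mean (line), for the 14 groups (x axis) of the CaggCreERT2, KspCre and drug cohorts; open points are rapamycin-treated mice. In the drug cohort Acadm sits between 48.6 and 71.6 FPKM in Tsc2 KO vehicle mice and between 152 and 164 FPKM in Tsc2 KO rapamycin mice, while the Pdk4 groups overlap in most comparisons.

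The proximal tubule markers moved with these genes. Of 15 such markers, 11, 9 and 12 decreased in Tsc2 KO mice in the CaggCreERT2, KspCre and drug cohorts and none increased. Their median changes were -2.56, -1.31 and -2.51. Their summed FPKM was 1385 to 5112 in CaggCreERT2 Tsc2 KO mice against 13120 to 14670 in controls, 2343 to 4625 against 13410 to 16320 in the KspCre cohort and 971.6 to 1690 against 11120 to 15670 in the drug cohort. Among the markers, Slc22a7 was listed at 0 in 2 CaggCreERT2 libraries and 1 library of the drug cohort, and the others were above 0 in every library. The summed FPKM of the 32 members was 56.4%, 57.3% and 38.1% of the control mean in Tsc2 KO mice, and that of the markers 20.6%, 23.2% and 9.43%. Kap, an androgen-regulated transcript of the proximal tubule, made up 49.8% to 66.7% of the sum in untreated or vehicle-treated controls, and the sum of the other 14 markers was 35.7%, 50.2% and 21.1% of the control mean. Of 10 tubular injury markers 4, 3 and 4 increased, none decreased and the others were not called. Their summed FPKM was 5524 to 7998 in Tsc2 KO vehicle mice against 1345 to 1393 in control vehicle mice, and Spp1 alone made up 91% to 94.9% and 86.7% to 89% of it. Markers of other tubule segments were lower in the CaggCreERT2 cohort too, without overlap, with 8 thick limb and distal tubule markers at a summed 826.8 to 1050 against 1518 to 1859 FPKM and 8 collecting duct markers at 364 to 607.9 against 834.6 to 1005 FPKM. KspCre Tsc2 KO mice had thick limb and distal tubule markers at 2048 to 2263 against 1663 to 1831 FPKM and collecting duct markers at 456.3 to 518.2 against 605 to 1002 FPKM, and in the drug cohort both lists overlapped. Umod carried the higher KspCre sum, at 1821, 1830 and 1978 FPKM in Tsc2 KO mice against 1077, 1112 and 1181 FPKM in controls. Of the other markers in that list, Slc12a1, Cldn16, Kcnj1, Slc12a3, Pvalb and Calb1 were lower in KspCre Tsc2 KO mice without overlap, and Trpm6 overlapped. The 12 macrophage markers summed to 213.3 to 265.7 FPKM in Tsc2 KO against 117.4 to 154.8 FPKM in control mice of the CaggCreERT2 cohort, 143.7 to 240 against 74.68 to 108.2 FPKM in the KspCre cohort and 164.5 to 262 against 60.69 to 76.56 FPKM in the drug cohort, without overlap. Summed endothelial markers were 28.61 to 33.79 FPKM in Tsc2 KO vehicle and 49.96 to 67.15 FPKM in control vehicle mice, 29.34 to 44.67 against 61.88 to 82.51 FPKM in the KspCre cohort and, with overlap, 45.66 to 77.86 against 75.07 to 88.23 FPKM in the CaggCreERT2 cohort. The share of counts on mitochondrial genes was 5.03% to 7.3% in Tsc2 KO vehicle and 10.2% to 12.5% in control vehicle libraries. In whole kidney, fewer cells of a type and less of these mRNAs per cell cannot be told apart, and what part the markers' change has in the members' change was not tested.

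**Figure D3:**
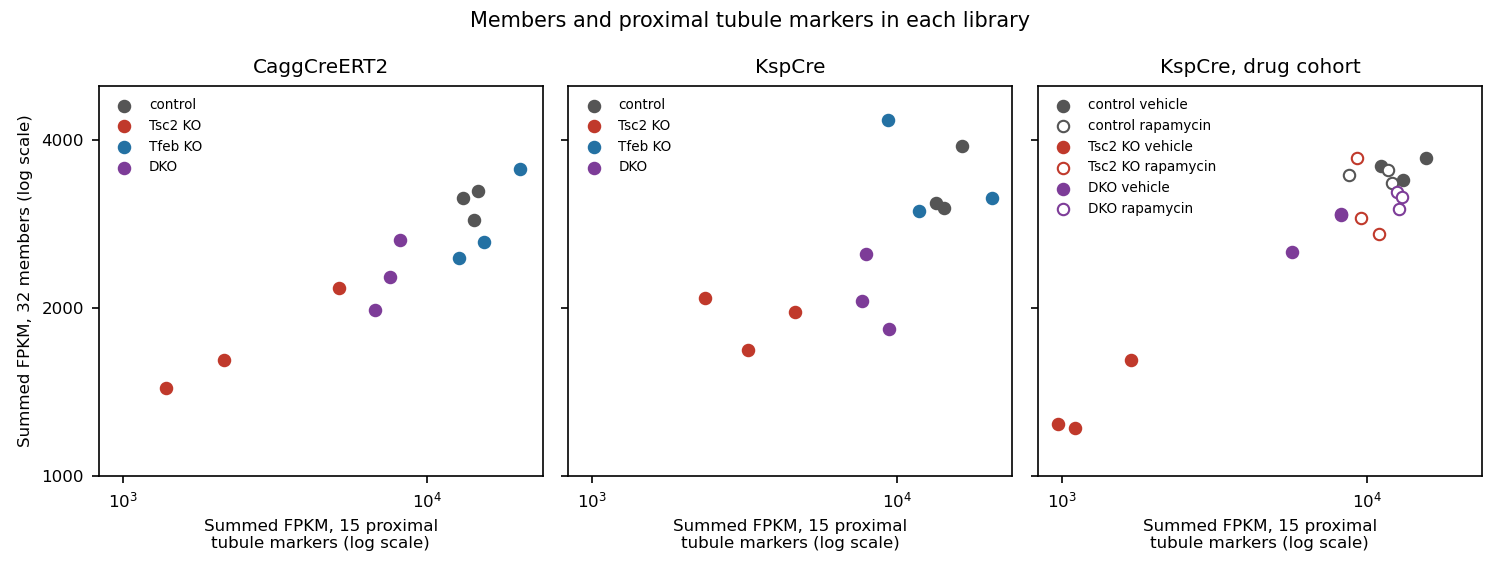
Summed FPKM of the 32 members (y axis, log scale) against that of 15 proximal tubule markers, Kap included (x axis, log scale) in each library (points) of the 3 cohorts, coloured by genotype, with open points for rapamycin. Tsc2 KO vehicle libraries lie lowest on both axes in the drug cohort (1219 to 1615 for the members and 971.6 to 1690 for the markers), and Tsc2 KO rapamycin libraries lie at 2710 to 3717 and 9283 to 11000.

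In the drug cohort 25 members increased in DKO vehicle against Tsc2 KO vehicle mice and none decreased. The median log2 fold change was 0.84 against 0.01 over all genes, of which 7.9% were called increased and 5.89% decreased. In the CaggCreERT2 cohort 2 increased (Acadm and Cat) and none decreased. The median was 0.28 against 0.01 and a background of 3.34% increased and 3.66% decreased, and it was 0.44 without Tsc2 KO replicate 3 and 0.42 with the names of the count table. In the KspCre cohort none of the 32 was called by edgeR, with a median of -0.02 against 0.01 and a background of 0.0541% increased and 0.0782% decreased. Single libraries turned the sign of that median, which was -0.17 without DKO replicate 2 and 0.09 without Tsc2 KO replicate 2, and it was -0.16 with the adipose markers as a covariate. At an unadjusted p below 0.05, 5 members passed there, as did 2090 of the 16631 genes tested, and DESeq2 called 2 members increased and none decreased. Whether this difference between cohorts exceeds the spread was not tested. The CaggCreERT2 count rests on single libraries: it was 14 without Tsc2 KO replicate 3, 5 without Tfeb KO replicate 1, 1 without control replicate 1 or 2 or DKO replicate 2, 0 without Tsc2 KO replicate 1 or DKO replicate 3, and 9 by DESeq2. Tsc2 itself was higher in DKO vehicle mice, at 5.53 to 6.41 FPKM, than in Tsc2 KO vehicle mice, at 3.8 to 4.47 FPKM, without overlap (log2 fold change 0.58, adjusted p = 8.43e-04), and its log2 fold change was 0.28 (adjusted p = 0.072) and 0.47 (0.166) in the CaggCreERT2 and KspCre cohorts. Its part in the members' values was not tested.

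All 7 peroxisomal members rose in DKO vehicle mice. Acaa1b was at 191, 124 and 196 FPKM in DKO vehicle mice, against 12.1, 16.2 and 29 FPKM with Tsc2 alone deleted, an 8.91-fold higher level (log2 fold change 3.16, SE 0.29, adjusted p = 2.63e-06). Ehhadh was at 119, 99.9 and 126 FPKM (1.86, SE 0.20, adjusted p = 1.25e-05) and Cat at 383, 258 and 349 FPKM (1.52, SE 0.16, adjusted p = 9.84e-06). For these 3 genes the DKO libraries were all above the Tsc2 KO libraries. Abcd3 was at 50.9, 38.3 and 52.8 FPKM, Scp2 at 215, 156 and 202 FPKM, Hsd17b4 at 83.5, 67.3 and 83 FPKM and Acaa1a at 55, 40.1 and 49.2 FPKM in DKO vehicle mice, with log2 fold changes of 0.91, 1.07, 0.49 and 0.54. In all of the 7, the DKO vehicle library with the lowest level was replicate 2, the one with the highest adrenal cortex markers. With that library and Tsc2 KO vehicle replicate 1 left out, a choice made after seeing the data, 22 members increased.

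Cyp4a10 was at 114, 121 and 129 FPKM and Cyp4a14 at 101, 114 and 105 FPKM in DKO vehicle mice, 4.85-fold and 7.45-fold higher than in Tsc2 KO vehicle mice (log2 fold change 2.28, SE 0.36, adjusted p = 3.38e-04, and 2.90, SE 0.35, adjusted p = 3.45e-05). All 4 acyl-CoA dehydrogenases rose. Acadm was at 150, 156 and 146 FPKM in DKO vehicle mice (log2 fold change 1.40) and Acadl at 131, 155 and 147 FPKM (0.45). Acadvl was at 63, 56.5 and 63.3 FPKM (0.66) and Acads at 81.3, 78.2 and 80 FPKM (0.50). All 5 genes of the later steps rose too, with Hadha at 41.7, 44.1 and 42.7 FPKM (0.56) and Hadhb at 44.8, 48.5 and 45.5 FPKM (0.85). Hadh was at 98.1, 76.4 and 90.3 FPKM (0.99), Echs1 at 31, 34 and 30.9 FPKM (0.80) and Acaa2 at 229, 189 and 226 FPKM (0.86). Each of these DKO vehicle groups was clear of the Tsc2 KO vehicle group. Decr1 was at 32.8, 28.6 and 34 FPKM (1.04) and Eci1 at 103, 97.8 and 113 FPKM (0.89). Etfa was at 165, 149 and 155 FPKM (0.83) and Etfdh at 22.2, 20.8 and 22.2 FPKM (0.48). In the carnitine shuttle, Cpt2 was at 71.4, 60.5 and 77 FPKM (0.99) and Crat at 35.4, 32.7 and 40.4 FPKM (0.45), while Cpt1a, at 127, 98.8 and 115 FPKM, had a log2 fold change of 0.30 with an adjusted p of 0.177. Ppara was at 15.7, 10.4 and 13.4 FPKM, a 2.1-fold higher level (1.07, SE 0.25, adjusted p = 0.00623). Over the same comparison 12 of 15 proximal tubule markers increased (median 1.78). Injury markers summed to 1719 to 3549 FPKM in DKO vehicle against 5524 to 7998 FPKM in Tsc2 KO vehicle mice. Macrophage markers were at 87.26 to 121 against 164.5 to 262 FPKM. Thick limb and distal tubule markers were at 2311 to 2860 against 1067 to 1989 FPKM, and collecting duct markers at 716.1 to 1006 against 499.3 to 575.1 FPKM. The part of all these markers in the members' change was not tested. Summed adipose markers were 294 to 667 FPKM in DKO vehicle and 34.6 to 146 FPKM in Tsc2 KO vehicle mice, and with them as a covariate 23 members increased.

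Acadm was, among CaggCreERT2 mice, at 107, 125 and 131 FPKM in DKO mice against 63.4, 64.4 and 90.1 FPKM in Tsc2 KO mice (log2 fold change 0.71, SE 0.20, adjusted p = 0.0402). Cat was at 201, 207 and 270 FPKM against 111, 133 and 163 FPKM (0.72, SE 0.15, adjusted p = 0.0132). The groups were clear of each other for both genes. In 8 of 15 proximal tubule markers the level increased as well, with a median of 1.02. Among KspCre mice the nearest to the threshold was Ehhadh, at 102, 115 and 82.7 FPKM in DKO mice against 38.9, 53.3 and 58 FPKM in Tsc2 KO mice, without overlap (log2 fold change 1.00, SE 0.18, adjusted p = 0.0524). Acadm was at 164, 148 and 131 FPKM against 68.3, 94.4 and 104 FPKM there (0.74, SE 0.26, adjusted p = 0.254) and Cyp4a14 at 43.4, 78.8 and 68.1 FPKM against 13, 30.6 and 29.4 FPKM (1.39, SE 0.44, adjusted p = 0.215). Other members had overlapping groups, such as Decr1 at 22.5, 33.2 and 25.1 FPKM against 22.8, 30.5 and 26.3 FPKM (0.02) and Hadh at 53.4, 88.1 and 68.8 FPKM against 63.8, 68 and 78.6 FPKM (0.00). KspCre DKO replicate 1, the library high in macrophage markers, was the lowest of its group for Decr1 and Hadh, and without it again none was called increased. Of the 15 proximal tubule markers, Kap alone was called in this KspCre comparison, as increased (log2 fold change 3.14, SE 0.52, adjusted p = 0.0493). Slc34a1, Slc5a2, Slc5a12, Fbp1 and Slc7a13 had a log2 fold change below 0 and the others above it.

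Against controls, the log2 fold change was below 0 in DKO mice for 28 members in the CaggCreERT2, 32 in the KspCre and 25 in the drug cohort, with 10, 16 and 10 at an unadjusted p below 0.05, and few were called. Of all genes tested, 3918 of 16348, 3232 of 16631 and 3982 of 17027 were below that p. Among CaggCreERT2 mice 3 decreased (Cpt1a, Acaa1b and Abcd3) and none increased. The median log2 fold change was -0.18 against 0.00 and a background of 2.3% decreased and 4.95% increased. Among KspCre mice 2 decreased (Decr1 and Ehhadh) and none increased. The median was -0.44 against 0.00 and a background of 0.722% decreased and 1.08% increased. Among vehicle-treated mice 3 decreased (Acadm, Ehhadh and Cyp4a14) and none increased. The median was -0.18 against 0.01 and a background of 1.39% decreased and 2.44% increased. In DKO vehicle mice Acadm was 1.83-fold lower than in control vehicle mice (log2 fold change -0.87, SE 0.16, adjusted p = 0.00599), Ehhadh 1.92-fold lower (-0.94, SE 0.20, adjusted p = 0.011) and Cyp4a14 2.23-fold lower (-1.16, SE 0.33, adjusted p = 0.0469). The summed proximal tubule markers of DKO mice were 53.2%, 56.9% and 55.4% of the control mean in the CaggCreERT2, KspCre and drug cohorts, and the injury markers 318%, 220% and 201%. Without Kap the former were 76.3%, 61.1% and 82.3%, and without Spp1 the latter were 104%, 244% and 164%. Their part was not tested. These counts and medians move with single libraries and tools. The CaggCreERT2 median was -0.30 without DKO replicate 3 and -0.08 without DKO replicate 1 or without both libraries of conflicting genotype, and that of DKO vehicle mice -0.09 without DKO vehicle replicate 2 or without the libraries high in adrenal cortex markers. The CaggCreERT2 count was 10 with only the groups compared and 0 with the names of the count table, which place a library with Tsc2 at 10.2 FPKM among the DKO mice. It was 8 without Tsc2 KO replicate 3, 5 without Tfeb KO replicate 1 and 1 without DKO replicate 1. The KspCre count was 6 without Tfeb KO replicate 2, 4 without DKO replicate 2, 1 without any of control replicates 1 and 2, Tsc2 KO replicates 1 and 3 and DKO replicates 1 and 3, and 6 by DESeq2. The drug-cohort count was 5 without Tsc2 KO rapamycin replicate 2 and 5 by DESeq2.

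Deleting Tfeb alone changed none of the 32 genes past the threshold in either cohort. Among CaggCreERT2 mice edgeR and DESeq2 called none, no member had an unadjusted p below 0.05 (1309 of all 16348 genes did), and the median was -0.08 against 0.00, with a background of 0.00612% increased and 0.00612% decreased. That median was -0.28 with Xist as a covariate, -0.23 without Tfeb KO replicate 1, the one with the most adrenal cortex markers in that cohort, and -0.02 without Tfeb KO replicate 3. Among KspCre mice edgeR and DESeq2 called none, 3 members had an unadjusted p below 0.05 (1424 of all 16631 genes did), and the median was -0.09 against 0.01, with a background of 0% in both directions. The KspCre median was 0.04 without control replicate 1 and -0.17 without Tfeb KO replicate 2. Levels spread widely within these groups. Acadm was at 215, 130 and 125 FPKM in CaggCreERT2 Tfeb KO mice and at 356, 172 and 231 FPKM in KspCre Tfeb KO mice, and Acaa1b at 324, 169 and 166 FPKM and at 180, 288 and 205 FPKM. KspCre Tfeb KO replicate 2 held the highest Cyp4a10 and Cyp4a14 of all 42 libraries, at 581 and 542 FPKM, against 199 and 198 FPKM for Cyp4a10 and 180 and 178 FPKM for Cyp4a14 in the other two. The test of the difference between the Tfeb effect with and without Tsc2 called no member in the CaggCreERT2 cohort (median 0.42 against -0.02, 10 with an unadjusted p below 0.05 beside 2602 of all 16348 genes, 2 called by DESeq2, background 1.09% in either direction), but 7 without Tsc2 KO replicate 3 and 1 without Tfeb KO replicate 1. It called none in the KspCre cohort either (median 0.08 against 0.02, 2 with an unadjusted p below 0.05 beside 1630 of all 16631 genes, 1 called by DESeq2, background 0%).

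In Tsc2 KO rapamycin against Tsc2 KO vehicle mice 25 members increased and none decreased. The median log2 fold change was 0.65 against -0.02 over all genes, of which 9.95% were called increased and 8.13% decreased. This comparison and that of DKO vehicle with Tsc2 KO vehicle share the Tsc2 KO vehicle libraries, so their values are given side by side. Tsc2 itself was at 5.06 to 6.5 FPKM in Tsc2 KO rapamycin mice, above every Tsc2 KO vehicle library (log2 fold change 0.49, adjusted p = 0.00199), and its part was not tested. In control mice rapamycin gave no called member by edgeR or DESeq2, 3 with an unadjusted p below 0.05 beside 1926 of all 17027 genes, and a median of -0.11 against 0.00, with a background of 0% increased and 0.0294% decreased. That median was -0.05 without control rapamycin replicate 1. In DKO mice 2 members increased (Acadm and Ehhadh) and none decreased. The median was -0.04 against -0.01 and a background of 1.24% increased and 2.13% decreased. It was -0.13 without DKO vehicle replicate 2, -0.12 without the libraries high in adrenal cortex markers and -0.02 without DKO rapamycin replicate 3. The count of increased members was 1 without DKO vehicle replicate 1 or 2 or DKO rapamycin replicate 2, 0 without DKO rapamycin replicate 3, and 1 with the adipose markers as a covariate. The summed proximal tubule markers were 5700 to 8244 FPKM in DKO vehicle and 12610 to 13050 FPKM in DKO rapamycin mice, and the injury markers 1719 to 3549 FPKM and 1311 to 1382 FPKM. Without Kap the tubule sums overlapped, at 2865 to 5526 FPKM and 5164 to 5582 FPKM, and the markers' part was not tested.

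The omega-hydroxylases and all 7 peroxisomal genes rose. Cyp4a10 was at 177, 470 and 173 FPKM in Tsc2 KO rapamycin mice, 11-fold above Tsc2 KO vehicle mice (log2 fold change 3.46, SE 0.38, adjusted p = 7.69e-06), and Cyp4a14 at 115, 273 and 91.4 FPKM, 11.2-fold above (3.49, SE 0.36, adjusted p = 3.82e-06). Replicate 2 was high in both, and no treated library overlapped the vehicle group. Acaa1b was at 169, 187 and 135 FPKM, 8.58-fold higher (3.10, SE 0.29). Ehhadh was at 144, 249 and 150 FPKM, 5.71-fold higher (2.51, SE 0.21), and Cat was at 387, 402 and 308 FPKM, 3.19-fold higher (1.67, SE 0.16). Abcd3 was at 53.2, 78.7 and 51.9 FPKM (1.28), Scp2 at 193, 229 and 176 FPKM (1.14), Hsd17b4 at 83.5, 91.5 and 71 FPKM (0.56) and Acaa1a at 45.5, 39.5 and 43.5 FPKM (0.37).

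In the mitochondria Acadm rose to 152, 156 and 164 FPKM, 2.77-fold above vehicle (log2 fold change 1.47, SE 0.16, adjusted p = 8.90e-06), and Decr1 to 40.1, 53.9 and 37.4 FPKM, 2.85-fold above (1.51, SE 0.17, adjusted p = 7.63e-06). Hadh was at 91.4, 109 and 87.1 FPKM (1.11), Acaa2 at 210, 251 and 203 FPKM (0.91) and Hadhb at 37, 46.3 and 37.3 FPKM (0.65). Hadha was at 36.2, 40.8 and 37.8 FPKM (0.41) and Echs1 at 24.8, 23.4 and 22.7 FPKM (0.37). For all of these genes the treated libraries were above the vehicle libraries of Tsc2 KO mice. Eci1 was at 108, 113 and 108 FPKM (0.96), Acads at 82.5, 83.1 and 82.1 FPKM (0.55) and Acadl at 131, 175 and 151 FPKM (0.54). Etfa was at 152, 143 and 127 FPKM (0.68) and Etfdh at 21.3, 22.2 and 19.6 FPKM (0.44). Acadvl, at 56, 46.3 and 47.7 FPKM, overlapped the vehicle group and was not called (0.38, adjusted p = 0.139). In the carnitine shuttle Cpt2 was at 57.9, 91.6 and 75.9 FPKM (1.10), Cpt1a at 119, 158 and 131 FPKM (0.56) and Crat at 31, 34.4 and 37.6 FPKM (0.37), and all 3 were called. Ppara was at 11.9, 17 and 11.2 FPKM, 2.13-fold above vehicle (1.09, SE 0.25, adjusted p = 0.00407). Of the proximal tubule markers 13 of 15 increased in the same comparison (median 2.26), and 4 of 10 injury markers decreased. Macrophage markers summed to 66.36 to 121 FPKM with rapamycin against 164.5 to 262 FPKM with vehicle. Thick limb and distal tubule markers were at 2192 to 2644 against 1067 to 1989 FPKM. The share of counts on mitochondrial genes was 8.36% to 10.2% against 5.03% to 7.3%. Summed collecting duct and endothelial markers overlapped. The part of all these markers in the members' change was not tested.

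The rapamycin effect itself differed between genotypes. It was larger in Tsc2 KO than in control mice for 22 members and smaller for none, and the median difference in log2 fold change was 0.76 against -0.01 over all genes, of which 14.4% were called in either direction. It was larger in Tsc2 KO than in DKO mice for 19 members and smaller for none, with a median difference of 0.84 against 0.01 and a background of 5.35%. The call was kept under every setting tried by 17 of the 22 members and by 13 of the 19 (Ppara, Cpt1a, Hadhb, Echs1, Etfa and Etfdh lost it in some). The second count ran from 14 with only the groups compared to 23 by DESeq2, and was 13 without DKO rapamycin replicate 3. In control mice Ehhadh was at 178, 226 and 203 FPKM with rapamycin against 236, 205 and 222 FPKM with vehicle, a log2 fold change of -0.13, and the effect in Tsc2 KO mice was larger by 2.64 (SE 0.28, adjusted p = 1.82e-05). In DKO mice Ehhadh was at 188, 217 and 212 FPKM with rapamycin against 119, 99.9 and 126 FPKM (0.84, SE 0.20, adjusted p = 0.021), and the effect in Tsc2 KO mice was larger by 1.68 (SE 0.28, adjusted p = 0.0022). Acadm in DKO mice was at 257, 246 and 264 FPKM with rapamycin against 150, 156 and 146 FPKM with vehicle (0.77, SE 0.16, adjusted p = 0.013), and its effect was not called as different from that in Tsc2 KO mice (difference 0.70, SE 0.23, adjusted p = 0.0749). Both differences use the Tsc2 KO libraries, and all members called in them differed upward.

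**Figure D4:**
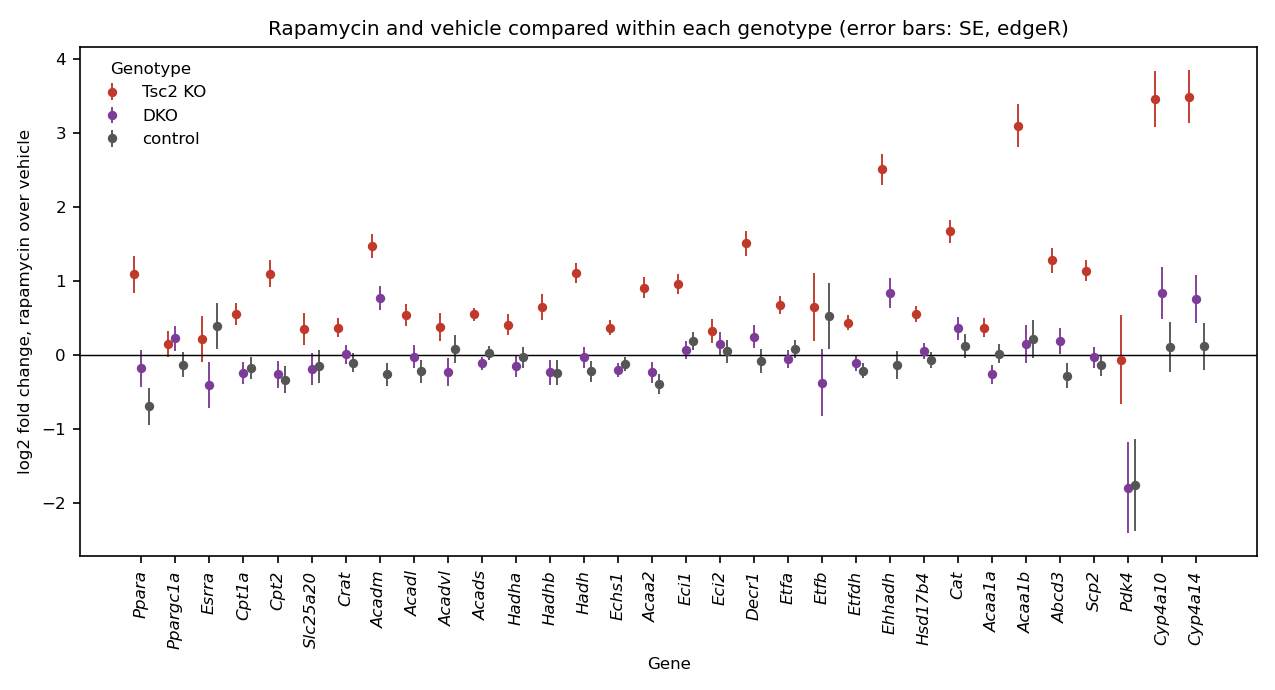
Log2 fold change of rapamycin over vehicle (y axis, edgeR, error bars SE) for the 32 genes (x axis) in Tsc2 KO, DKO and control mice of the drug cohort, each with 3 libraries per group. In Tsc2 KO mice 31 members lie above 0, with a median of 0.65, against medians of -0.04 in DKO and -0.11 in control mice, and Pdk4 lies lowest in DKO and control mice.

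In the 2 genotype comparisons made under rapamycin edgeR called no member, and DKO rapamycin was not compared with control rapamycin. Tsc2 KO rapamycin against control rapamycin mice gave a median of -0.03 against 0.00 over all genes, of which 0.305% were called increased and 0.0587% decreased. There 4 members and 2189 of all 17027 genes had an unadjusted p below 0.05, and DESeq2 called 2 members decreased. The largest shortfall without overlap was that of Acadm, at 152, 156 and 164 FPKM against 194, 266 and 226 FPKM (log2 fold change -0.54, SE 0.16, adjusted p = 0.168), followed by Acaa1b, at 169, 187 and 135 FPKM against 221, 258 and 200 FPKM (-0.46, SE 0.26, adjusted p = 0.473). Without Tsc2 KO rapamycin replicate 2 that median was -0.15. DKO rapamycin against Tsc2 KO rapamycin mice gave a median of -0.08 against 0.00, and of 0.01 without the same library, with a background of 0.0529% increased and 0.123% decreased. Here 3 members and 1802 of all 17027 genes had an unadjusted p below 0.05, and DESeq2 called 1 member increased. Acadm was the member with the largest excess, at 257, 246 and 264 FPKM against 152, 156 and 164 FPKM (0.70, SE 0.16, adjusted p = 0.0898).

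Called in no comparison were 4 members, Ppargc1a, Slc25a20, Eci2 and Pdk4. Ppargc1a, the gene of the coactivator PGC-1alpha, lay between 10.4 and 22.8 FPKM in all 42 libraries and was at 16.7, 16.4 and 17.9 FPKM in Tsc2 KO vehicle mice against 15.8, 19.3 and 18.1 FPKM in control vehicle mice (log2 fold change -0.06, SE 0.17). In CaggCreERT2 mice it was the one member above control after Tsc2 loss, at 19.8, 19.2 and 16.2 FPKM against 15.4, 17.1 and 15.4 FPKM (0.27, SE 0.11, adjusted p = 0.0789). Slc25a20, the carnitine-acylcarnitine carrier, was at 16.7, 16.6 and 10.7 FPKM in control vehicle and at 8.25, 9.75 and 12.4 FPKM in Tsc2 KO vehicle mice (-0.53, SE 0.22, adjusted p = 0.0657). Eci2, an isomerase found in peroxisomes and mitochondria, was at 16.7, 14.4 and 14.3 FPKM against 14.2, 9.92 and 12.4 FPKM (-0.31, SE 0.16, adjusted p = 0.132).

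Pdk4, whose kinase holds back glucose oxidation and which fasting and PPAR-alpha induce, varied widely between replicates. It was at 2.9, 4.52 and 14.3 FPKM in CaggCreERT2 controls, at 2.84, 13.2 and 4.17 FPKM in Tsc2 KO mice and at 13.5, 36.9 and 31.9 FPKM in DKO mice. DKO libraries were thus above all Tsc2 KO libraries (log2 fold change 2.00, SE 0.63), but the adjusted p was 0.0636. In the drug cohort it was at 32.7, 47.7 and 15.2 FPKM in control vehicle and 6.4, 4.65 and 17.1 FPKM in control rapamycin mice (-1.76, SE 0.62, adjusted p = 0.379), and at 24.2, 38.4 and 39.5 FPKM in DKO vehicle and 12.1, 6.61 and 10.7 FPKM in DKO rapamycin mice (-1.79, SE 0.61, adjusted p = 0.1). In Tsc2 KO mice it was at 10.6, 21 and 32.2 FPKM with vehicle and 17.1, 38.2 and 5.93 FPKM with rapamycin (-0.06, SE 0.60). The 6 adipose markers summed to 676, 550 and 0.0893 FPKM in control vehicle and 25.1, 27.4 and 241 FPKM in control rapamycin libraries, and to 294, 417 and 667 FPKM in DKO vehicle and 448, 1.38 and 141 FPKM in DKO rapamycin libraries. Replicate 3 was the lowest control vehicle library and the highest control rapamycin library in both Pdk4 and these markers, but the order was not shared in every group. In Tsc2 KO rapamycin mice the markers summed to 7.5, 10.7 and 52.7 FPKM, so that the library with the most of them had the least Pdk4. The library lowest in these markers was not the lowest in Pdk4 among KspCre DKO mice (516, 749 and 72.1 FPKM of the markers, and 6.06, 17.9 and 15.7 FPKM of Pdk4). In the KspCre cohort, Tsc2 KO replicate 2 had 531 FPKM of these markers against 7.15 and 0.441 FPKM in the other two. Pdk4 was at 37.7 FPKM in that library against 6.81 and 10.6 FPKM, and Acadvl at 59.8 FPKM against 36.6 and 45.6 FPKM. What part adipose tissue has in the values of Pdk4 was not tested. Esrra and Etfb shared an uneven pattern in the drug cohort, where both had the lowest level of their group in control vehicle replicate 2 (24.2 FPKM for Esrra and 15.6 FPKM for Etfb, against 67.3 and 62.6 FPKM in replicate 1) and in Tsc2 KO rapamycin replicate 2 (26.9 and 14.2 FPKM, against 61.8 and 54.3 FPKM in replicate 1). Neither was called there.

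The wider pathway was described with 109 further genes of lipid handling and PPAR-alpha, in lists of 16 regulators, 25 genes of uptake, activation and storage, 24 of mitochondrial oxidation, 29 of peroxisomal oxidation and 15 of omega oxidation and other targets. In Tsc2 KO against control mice 44 of 106 tested decreased and 6 increased in the CaggCreERT2 cohort, where 7.65% of all genes decreased and 11.4% increased. In the KspCre cohort 20 of 108 decreased and 2 increased (4.06% and 4.38% of all genes), and in the drug cohort 59 of 108 decreased and 3 increased (11.7% and 11.3%). In the peroxisomal list 18, 6 and 22 of 29 decreased, and in the mitochondrial list 12, 8 and 16 of 24. Hao2, a peroxisomal oxidase of 2-hydroxy acids, had mean FPKM of 32.7 in CaggCreERT2 Tsc2 KO mice and 419 in controls (log2 fold change -3.62, SE 0.35). The means were 116 and 523 in the KspCre cohort (-2.17) and 41.3 and 640 in the drug cohort (-3.95). Acox2, the oxidase for branched chains and bile acid intermediates, had mean FPKM of 5.58 against 41.4 in CaggCreERT2 mice (-2.83, SE 0.37) and 2.62 against 57.4 in the drug cohort (-4.45, SE 0.34). Its KspCre levels were 12.3, 13.1 and 16.3 FPKM in Tsc2 KO mice and 54.5, 32.4 and 31 FPKM in controls. Acsm1, a medium-chain acyl-CoA synthetase, had mean FPKM of 20.2 against 98.9 in CaggCreERT2 mice (-2.23), 39.2 against 147 in KspCre mice (-1.91) and 12.3 against 143 in the drug cohort (-3.53). A few genes of the same lists rose with Tsc2 loss. Ucp2, a mitochondrial carrier, had mean FPKM of 60.6 against 23.3 in the KspCre cohort (1.37, SE 0.23) and 53.4 against 18 in the drug cohort (1.56, SE 0.22), but 38.8 against 35.1 in the CaggCreERT2 cohort (0.21, adjusted p = 0.449). Abcd4 shares a transporter family with Abcd3 and was counted in the peroxisomal list, but it is not known as a peroxisomal fatty acid transporter. Abcd4 had mean FPKM of 13.2 against 4.56 in the KspCre cohort (1.53, SE 0.28), 13.2 against 9.07 in the CaggCreERT2 cohort (0.60, SE 0.20) and 7.42 against 6.06 in the drug cohort (0.29, adjusted p = 0.314). Cyp4b1, a further member of the Cyp4 family, had 32.9 against 16.7 in the CaggCreERT2 cohort (1.04, SE 0.25), where Tsc2 KO replicate 3 was within the control range, and was not called in the KspCre (-0.66, adjusted p = 0.257) and drug cohorts (-0.10, 0.816). Acsl4, which activates arachidonic acid, had 20 against 13.5 in CaggCreERT2 mice (0.64) and 28.4 against 16.5 in the drug cohort (0.78).

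In DKO vehicle against Tsc2 KO vehicle mice 51 of the 108 increased and 1 decreased, against 7.9% and 5.89% of all genes. With rapamycin in Tsc2 KO mice 53 increased and 3 decreased, against 9.95% and 8.13%. In DKO against Tsc2 KO mice 21 of 106 increased and 2 decreased in the CaggCreERT2 cohort, against 3.34% and 3.66%. Among KspCre mice 1 of 108, Hao2, increased, against 0.0541% of all genes (log2 fold change 1.21, SE 0.20, adjusted p = 0.0415). Hao2 rose to a mean of 264 FPKM in DKO vehicle (2.67, SE 0.40) and 604 FPKM in Tsc2 KO rapamycin mice (3.87, SE 0.42), and Acox2 to 25.8 FPKM (3.30) and 38.1 FPKM (3.86). Ucp2 was still above control in DKO vehicle mice, at 50.7 against 18 FPKM (1.49, SE 0.22, adjusted p = 0.00107). It was also higher in Tsc2 KO rapamycin than in control rapamycin mice, at 35.3 against 15.7 FPKM (1.17, SE 0.22, adjusted p = 0.0183), where it was the one of the 108 genes called.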

How the data were processed

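Poly-A RNA of whole kidney was sequenced with a non-directional kit, so reads of overlapping antisense genes are not separated. The authors aligned reads to mm10 and deposited, for each cohort, gene counts and FPKM values normalised for gene length and depth. The submitters' processing notes name STAR 2.6.1d, HISAT2 2.0.5, featureCounts 1.5.0-p3 and DESeq2 1.20.0, without saying which step each served. Columns of the authors' own comparisons were not used.

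Count columns were matched to libraries by name. In 4 CaggCreERT2 libraries the names of the count and FPKM tables differ, and counts were joined to FPKM by their constant ratio and took the FPKM names. Counts were tested with edgeR 4.0.16 in R 4.3.3 (filterByExpr, TMM, quasi-likelihood), fitted per cohort over all its groups, with no covariate and Benjamini-Hochberg adjustment over all genes tested. A called gene had an adjusted p of at most 0.05 and a mean of at least 5 FPKM in a group compared. Differences between effects were tested as interaction terms. Tests were tried on simulated data first. For Tsc2 KO against control, simulated 2-fold changes were recovered for 73%, 50% and 64% of changed genes in the CaggCreERT2, KspCre and drug cohorts. Of 1.5-fold changes 23%, 3% and 15% were recovered, so a gene not called may still have changed. Replicates of a group differed by a chi-square of 16.4 to 87.5 per gene, so each library was counted as 1 sample.

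Members called in at least 3 comparisons are given library by library, and further pathway genes are named by their largest called changes. The members and all gene lists were chosen with earlier results of these data known. Alternatives were DESeq2 1.42.0, DESeq2-type size factors, no filter on low counts, leaving out the FPKM minimum, a replicate block, only the groups compared, and each library left out. For CaggCreERT2 mice they were also Xist as a covariate, the names of the count table, and the libraries of conflicting genotype left out. Added after seeing the data were the libraries high in adrenal cortex markers left out and log2 of the summed adipose marker FPKM plus 1 as a covariate, and for the interaction terms each library left out. Gene counts summed to medians of 17841764, 17049073 and 18173810 per library in the CaggCreERT2, KspCre and drug cohorts. Sequences are from RefSeq (GRCm38.p6). No promoter entry was matched for Cyp4a10, Cyp4a14, Crat, Decr1, Acaa2 and Hsd17b4.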

Additional observations from a re-analysis of the deposited data

Results flagged for a closer look

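The rapamycin effect differed between genotypes of the drug cohort by edgeR's interaction test for 22 members against control mice and 19 members against DKO mice, of which 17 and 13 kept the call under every setting tried, and values are differences in log2 fold change (Tsc2 KO minus the other genotype). Groups of 3 libraries were not tested for single distant libraries.

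Against control mice the effect in Tsc2 KO mice was larger for all 22 of these members. Among the regulators, it was larger by 1.78 for Ppara. In the carnitine shuttle, it was larger by 0.73 for Cpt1a and 1.43 for Cpt2. Among the acyl-CoA dehydrogenases, it was larger by 1.73 for Acadm, 0.76 for Acadl and 0.52 for Acads. In the later mitochondrial steps, it was larger by 0.89 for Hadhb, 1.33 for Hadh, 0.49 for Echs1 and 1.30 for Acaa2. Among the auxiliary enzymes, it was larger by 0.77 for Eci1 and 1.59 for Decr1. In electron transfer, it was larger by 0.60 for Etfa and 0.65 for Etfdh. Among the peroxisomal genes, it was larger by 2.64 for Ehhadh, 0.63 for Hsd17b4, 1.55 for Cat, 2.88 for Acaa1b, 1.56 for Abcd3 and 1.28 for Scp2. Among the further PPAR-alpha targets, it was larger by 3.35 for Cyp4a10 and 3.37 for Cyp4a14.

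Against DKO mice the effect in Tsc2 KO mice was larger for all 19 of these members. Among the regulators, the difference was 1.28 for Ppara. In the carnitine shuttle, the difference was 0.79 for Cpt1a and 1.36 for Cpt2. Among the acyl-CoA dehydrogenases, the difference was 0.66 for Acads. In the later mitochondrial steps, the difference was 0.88 for Hadhb, 1.13 for Hadh, 0.56 for Echs1 and 1.15 for Acaa2. Among the auxiliary enzymes, the difference was 0.90 for Eci1 and 1.26 for Decr1. In electron transfer, the difference was 0.74 for Etfa and 0.54 for Etfdh. Among the peroxisomal genes, the difference was 1.68 for Ehhadh, 1.31 for Cat, 2.95 for Acaa1b, 1.09 for Abcd3 and 1.17 for Scp2. Among the further PPAR-alpha targets, the difference was 2.62 for Cyp4a10 and 2.73 for Cyp4a14.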

How the results depend on the processing

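Of 3884 values of called members under alternatives, 3593 kept the call, 291 lost it and 0 changed sign, and size factors moved the median of all genes by at most 0.01. Kept under every setting run were 10 of 17 members in CaggCreERT2 and 4 of 10 in KspCre Tsc2 KO mice, and in the drug cohort 23 of 26 for Tsc2 loss, 20 of 25 for DKO vehicle and 19 of 25 for rapamycin in Tsc2 KO mice, and 17 of 22 and 13 of 19 for the differences in rapamycin effect from control and DKO mice. Deviations of same-numbered libraries had correlations of -0.17 to 0.13, -0.29 to 0.25 and -0.36 to 0.36 in the 3 cohorts. Those of differently numbered libraries were -0.24 to 0.22, -0.32 to 0.33 and -0.35 to 0.43. The main fits pair no libraries, and whether animals shared a litter or batch was not tested. The replicate block gave 1 increased member in place of 2 for CaggCreERT2 DKO against Tsc2 KO, and 16 in place of 19 for the difference in rapamycin effect between Tsc2 KO and DKO mice.

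The cause of the following shifts was not tested. For CaggCreERT2 DKO against Tsc2 KO mice the increased members were 9 with DESeq2, 9 without the low-count filter, 1 with only the groups compared and 1 with the names of the count table. Against control, the decreased members of CaggCreERT2 DKO mice were 5, 8, 10 and 0 under these settings, and 1 increased without the filter and 1 with only the groups compared. In the interaction 2 were called by DESeq2 and 3 without the filter. For KspCre DKO against Tsc2 KO mice 2 increased with DESeq2 and 1 without the filter, against control 6, 5 and 4 decreased with DESeq2, without the filter and with only the groups compared, and DESeq2 called 1 in the interaction. In the drug cohort DESeq2 gave 5 decreased for DKO vehicle against control vehicle, 2 decreased for Tsc2 KO against control rapamycin and 1 increased for DKO against Tsc2 KO rapamycin, where no filter and only the groups compared gave 1 each. For rapamycin in DKO mice 4 increased and 1 decreased with only the groups compared, 1 decreased without the filter, and 1 increased without the libraries high in adrenal cortex markers, a setting chosen after seeing the data. So was a covariate of the adipose markers, which gave 5 decreased for KspCre Tsc2 KO, 0 increased for CaggCreERT2 DKO against Tsc2 KO, 1 increased for CaggCreERT2 DKO against control, and 1 increased for rapamycin in DKO mice.

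With each library left out in turn, decreased members ranged from 10 to 21 and increased from 0 to 1 for CaggCreERT2 Tsc2 KO against control, from 4 to 11 decreased for KspCre Tsc2 KO, and from 23 to 27 decreased for Tsc2 KO vehicle. CaggCreERT2 DKO gave 0 to 14 increased against Tsc2 KO, and 1 to 8 decreased and 0 to 1 increased against control. KspCre DKO gave 0 to 1 increased and 1 to 6 decreased for the same pairs. DKO vehicle gave 21 to 26 increased against Tsc2 KO vehicle and 2 to 5 decreased against control vehicle, rapamycin 20 to 26 increased in Tsc2 KO and 0 to 2 in DKO mice, Tsc2 KO against control rapamycin 0 to 1 decreased, and DKO against Tsc2 KO rapamycin 0 to 1 increased. In the interactions, where leaving out libraries was chosen after seeing the data, 0 to 7 members were called for the Tfeb effect in CaggCreERT2 and 0 in KspCre mice, 19 to 22 for the rapamycin effect in Tsc2 KO against control mice and 13 to 20 against DKO mice. Of 372 medians under alternatives, 6 moved beyond their spread. With Xist as a covariate they were -0.66 for CaggCreERT2 Tsc2 KO and -0.28 for Tfeb KO against control. Leaving out Tsc2 KO vehicle replicate 3 gave -1.04 against control vehicle, 0.97 for DKO vehicle and 0.79 for rapamycin, and leaving out Tsc2 KO rapamycin replicate 2 gave -0.15 against control rapamycin.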
